A study of Mus musculus with 9 samples.

Results

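The genes described here are 31 genes of the lysosome, chosen by name: soluble acid hydrolases and their activator proteins, the sterol carriers Npc1 and Npc2, membrane proteins, and Tfeb, the transcription factor that controls many of them. Cathepsins were not in the list. Of the 31, 30 were measured among 18194 genes on the arrays, and all 30 passed the filter on dim signal that left 12826 genes for testing. Cd63, a tetraspanin of the lysosomal membrane, had no probe set named with its symbol alone and was not analysed here. The rule names the genes and sets no threshold on a measured value.

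RNA came from FrII cells, a myeloid progenitor fraction sorted as negative for lineage markers and Sca-1, positive for c-Kit and low or positive for Mac1, and was hybridised to 9 Affymetrix mouse arrays. There were 3 arrays from wild type C57/BL6 mice, 3 from leukaemic mice overexpressing Sox4, and 3 from leukaemic mice of the K/L genotype, with mutations in both copies of Cebpa. Sox4 is a transcription factor linked to leukaemia, and Cebpa encodes C/EBPα, a transcription factor of granulocyte development. All groups had the strain label C57/BL6, the tissue label blood and an age of 2 to 4 months. The source names of the leukaemic samples, but not those of wild type, add CD45.1- CD45.2+ to the gate, and the extraction protocol shared by all samples lists it, so whether wild type cells passed it is not settled. The vector or promoter that drives Sox4, and how leukaemia arose in either group, were not given in the sources used here. Descriptions number 1 mouse per array while titles speak of mice, so n counts arrays, and p-values reflect only how these arrays vary.

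Levels below are log2 intensities of a gene's brightest probe set, with _x_at probe sets used only where there was no other. Differences are in log2 units with the standard error of the limma fit. A gene is said to have risen or fallen where its adjusted p lay under 0.05. Levels were compared between arrays and never between genes. Sox4 itself read 3.81 to 3.97 in wild type, 9.61 to 9.87 in Sox4 and 10.52 to 10.87 in K/L arrays. Cebpa read 9.31 to 9.78, 10.50 to 10.64 and 10.47 to 10.66 in the same order, which does not test its mutations. Kit, the c-Kit gene of the gate, read between 9.10 and 9.36 on all 9 arrays. Itgam, which encodes a Mac1 chain, did not pass the filter, as only 2 arrays, both wild type, lay above their 40th percentile, and Ly6a was not analysed here. Wild type array 3 stood apart: 400 and 495 genes differed over 2-fold between it and the other wild type arrays, against 18 to 69 in all other replicate pairs. Array medians lay between 43.07 and 46.79 intensity units. For the Gapdh control probe sets, the signal at the 3' end divided by that at the 5' end, a measure of transcript integrity and labelling, was 2.68 to 2.91 in wild type, 2.22 to 2.44 in Sox4 and 1.93 to 2.00 in K/L arrays, and its part in the results was not tested.

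Lysosomes are acidic organelles in which hydrolases break down glycans, glycosaminoglycans, lipids and proteins, each enzyme removing a particular bond so that loss of an enzyme lets its substrate build up. Most soluble hydrolases are tagged with mannose 6-phosphate in the Golgi and carried to the lysosome by receptors, while a proton pump acidifies its lumen. Tfeb and the related factors Tfe3 and Mitf bind an E-box-like element, named CLEAR, before many lysosomal genes. In myeloid cells some of the same hydrolases also occur in the primary granules of neutrophils and in the phagolysosomes of macrophages.

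Lysosomal genes differed from wild type in both leukaemias, mostly upwards in K/L cells. In K/L cells 17 of 30 rose and 7 fell, led by Gm2a (3.19 ± 0.10, standard error), Gaa (2.08 ± 0.23) and Ids (1.76 ± 0.23), while Neu1 fell by 1.31. In Sox4 cells 13 of 30 rose and 7 fell, led by Gm2a (2.48 ± 0.10), Gaa (2.32 ± 0.23) and Psap (1.72 ± 0.10), while Neu1 fell by 1.41. Both comparisons share the wild type arrays. By role, 5 of 7 sugar-removing enzymes, 3 of 7 genes of glycosaminoglycan breakdown and 5 of 6 of lipid breakdown rose in K/L cells, and 3 of the 5 membrane proteins tested fell there.

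Against these counts stands a wide change over all genes. In K/L cells, 50.6 percent of all tested genes passed the threshold, 29.0 percent higher and 21.6 percent lower, beside 80.0 percent of the lysosomal genes (24 of 30). A difference of at least 2-fold was reached by 8 lysosomal genes, 7 up and 1 down, against 16.6 percent of all genes, and 26 of 30 had groups that did not overlap, against 58.1 percent. In Sox4 cells, 47.8 percent of all genes passed, 26.7 percent higher and 21.1 percent lower, beside 66.7 percent of the lysosomal genes (20 of 30). At least 2-fold were 6, 5 up and 1 down, against 15.6 percent, and groups did not overlap in 22, against 56.2 percent. The median lysosomal difference was 0.38 in K/L cells, where that of all genes was 0.06, and 0.04 in Sox4 cells, where that of all genes was 0.03. Without wild type array 3 the counts were 15 up and 10 down in K/L cells and 11 up and 10 down in Sox4 cells, and the Sox4 median was -0.04.

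Of the 30 genes, 12 rose in both leukaemias, 4 fell in both and none passed the threshold in opposite directions. Over all genes these patterns made up 18.8, 14.3 and 2.14 percent. The 12 were Gaa, Hexa, Gusb, Naglu, Ids, Arsa, Lipa, Psap, Gm2a, Tpp1, Cln3 and Tfeb, and the 4 were Neu1, Asah1, Ppt1 and Scarb2. A further 5 rose in K/L cells alone at the threshold (Gla, Glb1, Man2b1, Smpd1, Npc1), 3 fell there alone (Idua, Lamp1, Mcoln1), 1 rose in Sox4 cells alone (Sgsh) and 3 fell there alone (Manba, Galns, Npc2). Arsb and Lamp2 passed in neither. A pass in only 1 leukaemia does not show a difference between the leukaemias, whose own test is given further on.

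**Figure D1:**
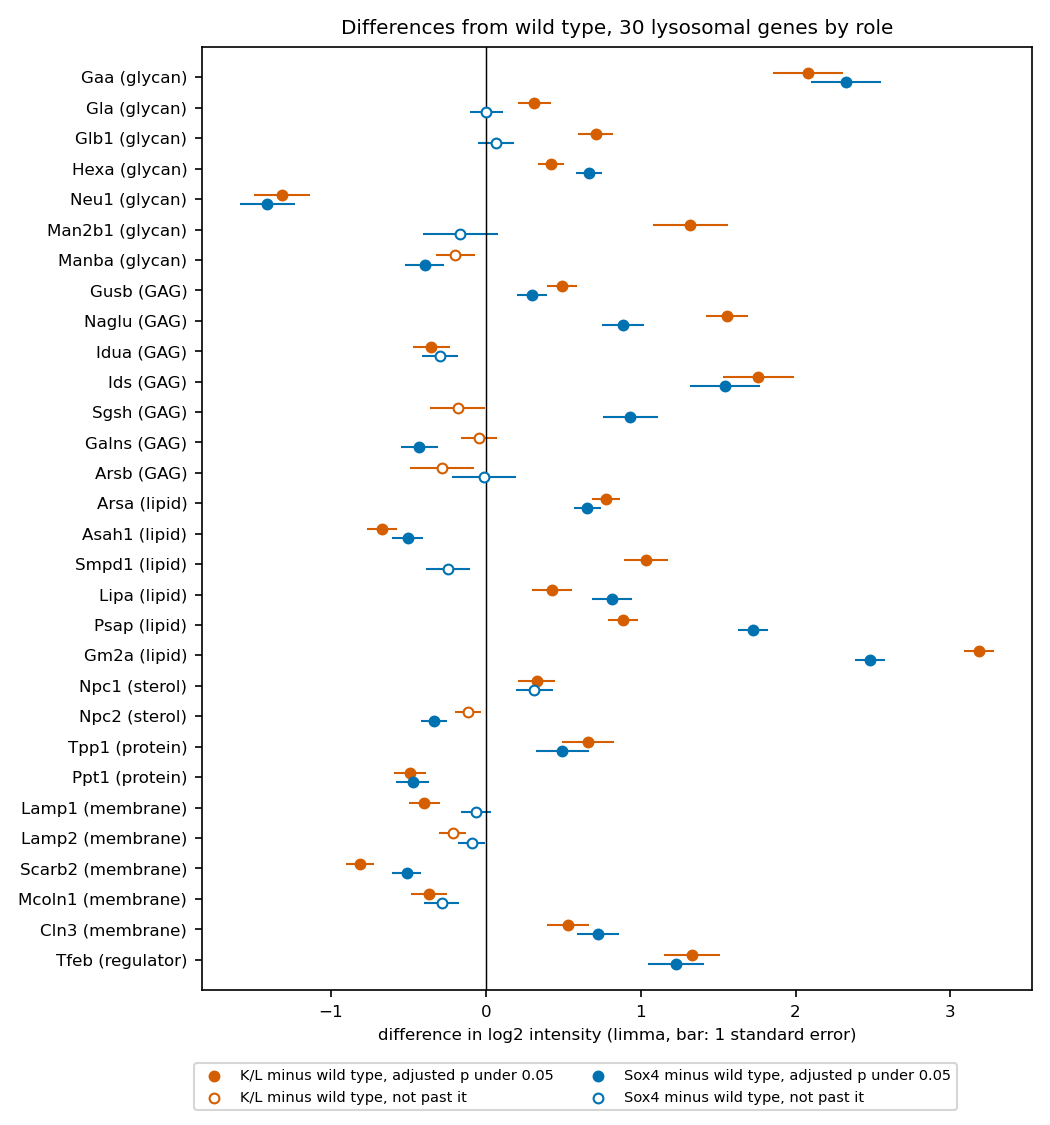
Difference from wild type in log2 intensity (x axis) for the 30 lysosomal genes (y axis, with their role; GAG, glycosaminoglycan), in K/L (orange) and Sox4 (blue) cells, each from 3 against 3 arrays, with bars of 1 standard error and filled points where the adjusted p lies under 0.05. Gm2a lies farthest right in both, at 3.19 and 2.48, and Neu1 farthest left, at -1.31 and -1.41.

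Markers of other cells moved between the groups too. Of 10 macrophage genes, Mrc1, Marco, Vsig4, C1qa, C1qb and Timd4 lay at or under the 40th percentile on all 9 arrays, and the summed intensity of the list was 439 to 532 in wild type, 312 to 354 in Sox4 and 434 to 480 in K/L arrays. Of the 3 tested, 1 rose and 1 fell in each leukaemia. Adgre1, which encodes the macrophage antigen F4/80, read 8.08 to 8.54 in wild type, 4.95 to 5.18 in Sox4 and 7.82 to 8.04 in K/L arrays and fell. Cd163, a haemoglobin scavenger receptor of macrophages, rose: it read 3.46 to 3.74 in wild type, under the 40th percentile of every array, 7.02 to 7.33 in Sox4 and 5.87 to 5.97 in K/L arrays. Of 9 monocyte genes, 7 were on the arrays and 6 tested: 2 rose and 1 fell in K/L cells, and 5 rose and 1 fell in Sox4 cells. Their summed intensity was 6510 to 6980, 7030 to 8000 and 3460 to 3990 in wild type, Sox4 and K/L arrays. Lyz2, the brightest of these, weighs most in the sums and was the gene that fell, with means of 12.44, 11.50 and 10.93. Cd14 and Mpeg1 rose in both leukaemias. Late neutrophil genes summed to 15200 to 20700, 4150 to 4420 and 274 to 413 in the same order, but S100a8 and S100a9, the brightest of the list, set these sums. Of 9 such genes 5 fell and none rose in K/L cells, whereas in Sox4 cells 6 rose, among them Ltf by 2.33, and S100a8 and S100a9 fell. Mast cell and basophil genes summed to 920 to 1230, 1450 to 1980 and 4710 to 5420. Of 5 tested, Cpa3 and Mcpt8 rose and Ms4a2 fell in K/L cells, while Ms4a2 and Gzmb rose in Sox4 cells. Cpa3, with a mean of 11.93 in K/L arrays, weighs most in the K/L sum.

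Eosinophil genes summed to 169 to 413, 929 to 1230 and 1810 to 2280 in wild type, Sox4 and K/L arrays, with 3 of 4 higher in K/L cells, and 2 higher and 1 lower in Sox4 cells. Prg3 weighs most in the K/L sum and Prg2 in the Sox4 sum, with means of 10.40 and 9.43 there. Megakaryocyte genes summed to 188 to 296, 1210 to 1960 and 207 to 213. All 4 of these tested rose in Sox4 cells, Pf4 at least 39.4-fold, and 1 fell in K/L cells. Erythroid genes summed to 138 to 173, 434 to 504 and 144 to 150, with 2 of 3 higher in Sox4 cells, Car1 at least 8.36-fold, and none called in K/L cells. Pf4 and Car1, with means of 10.24 and 8.01 in Sox4 arrays, weigh most in the Sox4 sums of their lists. These least folds set wild type arrays, none of which exceeded the 40th percentile, to that percentile. The part of such cells in the lysosomal results was not tested. In bulk samples, fewer cells of a type and less RNA per cell cannot be told apart.

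Tfeb, the regulator in the list, rose in both leukaemias. It read 5.64, 5.36 and 5.03 in wild type, 6.32, 6.61 and 6.78 in Sox4, and 6.53, 6.58 and 6.91 in K/L arrays. All 6 leukaemic arrays lay above all 3 wild type arrays, and the leukaemias overlapped. The difference was 1.33 ± 0.18 in K/L cells (adjusted p = 0.000191) and 1.23 ± 0.18 in Sox4 cells (adjusted p = 0.000337). Between the leukaemias it was 0.10, with a 95% interval from -0.30 to 0.50.

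The promoters of the listed genes were read for the E-box core that Tfeb and its relatives bind. RefSeq windows of assembly GRCm38.p6, from 250 bases before to 50 after each transcription start, matched 28 of the 31 symbols. The core, CACGTG, lay in the window of 9 of these 28 genes, or 32.1 percent, against 8.09 percent of 27025 genes with a window. TCACGTGA lay in 3 (10.7 against 1.12 percent): Gla, Mcoln1 and Cln3. The 10-base CLEAR consensus, TCACGTGA preceded by G and followed by C, lay in 1, Cln3 (3.57 against 0.37 percent). Each motif reads the same on both strands, and the shorter ones lie within the longer. The genes with the core were Gaa, Gla, Glb1, Naglu, Sgsh, Arsa, Lamp1, Mcoln1 and Cln3. A match describes letters and shows no binding. The 27025 genes were every gene with a window, not matched to the listed genes in kind or base composition.

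The windows below show how the core falls before genes that moved in different ways: Gaa and Naglu rose in both leukaemias, Lamp1 and Mcoln1 fell in K/L cells, and Gm2a, with the largest rise, holds no core. The Mcoln1 call was lost in 5 of 20 alternatives. Each run is the 250 bases before the start, on the plus strand, with the core in capitals: Gaa at chr11:119267713-119267962, Naglu at chr11:101069844-101070093, Lamp1 at chr8:13158911-13159160, Mcoln1 at chr8:3500269-3500518 and Gm2a at chr11:55097735-55097984. Counted from the start, the core begins at base -140 in Gaa and -73 in Naglu. Lamp1 holds it 4 times, at -61, -45, -28 and -15, and Mcoln1 at -71 and -45. The run for Cln3 is 30 bases on the minus strand at chr7:126583340-126583369, before the more downstream of its RefSeq starts, with the CLEAR consensus in capitals.
Gaa: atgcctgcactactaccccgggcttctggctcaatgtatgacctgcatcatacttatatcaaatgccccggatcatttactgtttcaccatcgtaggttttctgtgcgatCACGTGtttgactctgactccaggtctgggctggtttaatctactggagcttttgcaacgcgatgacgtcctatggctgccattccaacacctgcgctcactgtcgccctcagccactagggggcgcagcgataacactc
Naglu: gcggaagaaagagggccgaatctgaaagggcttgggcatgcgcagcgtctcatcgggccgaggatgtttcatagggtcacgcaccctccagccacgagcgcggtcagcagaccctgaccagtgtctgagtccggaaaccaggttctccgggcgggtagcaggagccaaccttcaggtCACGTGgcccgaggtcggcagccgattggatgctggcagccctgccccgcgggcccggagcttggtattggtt
Lamp1: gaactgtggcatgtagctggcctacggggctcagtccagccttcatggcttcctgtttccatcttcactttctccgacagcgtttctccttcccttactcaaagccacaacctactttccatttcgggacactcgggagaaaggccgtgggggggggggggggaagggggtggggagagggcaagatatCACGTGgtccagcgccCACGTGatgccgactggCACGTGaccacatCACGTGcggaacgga
Mcoln1: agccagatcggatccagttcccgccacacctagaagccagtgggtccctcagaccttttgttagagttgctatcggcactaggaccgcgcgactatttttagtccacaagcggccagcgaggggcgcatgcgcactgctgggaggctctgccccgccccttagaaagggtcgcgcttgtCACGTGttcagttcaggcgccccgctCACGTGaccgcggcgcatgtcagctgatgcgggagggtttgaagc
Gm2a: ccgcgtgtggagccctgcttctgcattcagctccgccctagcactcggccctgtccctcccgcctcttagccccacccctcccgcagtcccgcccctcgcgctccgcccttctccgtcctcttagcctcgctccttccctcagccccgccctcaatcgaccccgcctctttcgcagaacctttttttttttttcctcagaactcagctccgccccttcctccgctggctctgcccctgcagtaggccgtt
Cln3: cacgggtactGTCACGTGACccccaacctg

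**Figure D2:**
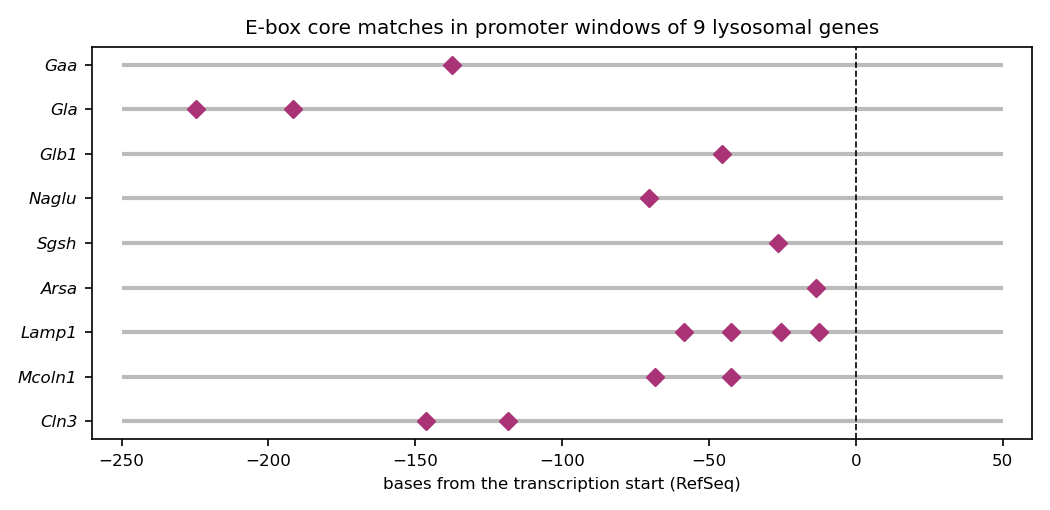
Position of each E-box core match (diamonds, x axis in bases from the RefSeq transcription start, dashed line) in the promoter windows (grey lines) of the 9 lysosomal genes that hold one (y axis). Lamp1 carries 4 matches within the 61 bases before its start, and Gla, Mcoln1 and Cln3 carry 2 each.

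Genes with and without the core moved in both directions in K/L cells. Among the 9 with it, 6 rose and 2 fell in K/L cells, and 5 rose and none fell in Sox4 cells. Among the 18 tested genes whose windows lack it, 10 rose and 4 fell in K/L cells, and 8 rose and 5 fell in Sox4 cells. These counts are a description of few genes, and the difference between them was not tested.

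Enzymes that remove sugars from glycans and glycolipids moved in both directions. Of 7, 5 rose and 1 fell in K/L cells, and 2 rose and 2 fell in Sox4 cells. Over all genes 29.0 percent rose and 21.6 percent fell in K/L cells, and 26.7 and 21.1 percent in Sox4 cells. The Sox4 shares here, 28.6 percent each way, lie near these. Gaa, the acid alpha-glucosidase that degrades glycogen in the lysosome, read 6.36, 6.23 and 5.41 in wild type, 8.35, 8.27 and 8.36 in Sox4, and 8.11, 7.83 and 8.31 in K/L arrays. Every leukaemic array lay above every wild type array, of which array 3 was lowest. The rise was 2.08 ± 0.23 in K/L cells (adjusted p = 4.76e-05) and 2.32 ± 0.23 in Sox4 cells (adjusted p = 2.5e-05), and 1.78 and 2.03 without wild type array 3. On the other probe set of Gaa it was 1.02 in K/L and 1.42 in Sox4 cells. Neu1, the sialidase that trims sialic acid from glycoproteins, ran the other way. It read 9.42, 9.68 and 8.93 in wild type, 7.71, 8.12 and 7.97 in Sox4, and 7.99, 8.03 and 8.06 in K/L arrays. Both leukaemias lay below wild type without overlap, with differences of -1.31 ± 0.18 in K/L cells (adjusted p = 0.000216) and -1.41 ± 0.18 in Sox4 cells (adjusted p = 0.000143).

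Man2b1, the lysosomal alpha-mannosidase, separated the leukaemias. It read 11.22, 11.26 and 10.21 in wild type, 10.61, 10.85 and 10.75 in Sox4, and 12.22, 12.21 and 12.23 in K/L arrays. K/L arrays lay above all others, while Sox4 arrays lay within the wild type range, which wild type array 3 sets at its lower end. The difference from wild type was 1.32 ± 0.24 in K/L cells (adjusted p = 0.00126) and -0.16 ± 0.24 in Sox4 cells (adjusted p = 0.609). Without wild type array 3 these were 0.98 and -0.51, the latter now past the threshold (adjusted p = 0.00187). A further probe set of Man2b1 gave 0.16 (adjusted p = 0.34) in K/L and -1.07 in Sox4 cells, so the rise over wild type rests on the brighter probe set.

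Hexa, the alpha subunit of the hexosaminidase that degrades gangliosides, read 11.62, 11.68 and 11.53 in wild type, 12.34, 12.22 and 12.26 in Sox4, and 12.01, 12.05 and 12.03 in K/L arrays. The 3 groups did not overlap, with Sox4 highest. Its rise was 0.67 ± 0.09 in Sox4 cells (adjusted p = 0.000163), with 0.42 ± 0.09 for K/L (adjusted p = 0.00266). Glb1, the beta-galactosidase, rose in K/L cells by 0.71 ± 0.11 (adjusted p = 0.000609) and differed by 0.07 in Sox4 cells (adjusted p = 0.673). Gla, the alpha-galactosidase, rose in K/L cells by 0.31 ± 0.11 (adjusted p = 0.0355). That call was lost without wild type array 1 or 3, any Sox4 array or K/L array 1, with differences of 0.21 to 0.32 and adjusted p of 0.0506 to 0.139. Manba, the beta-mannosidase, fell in Sox4 cells by 0.39, a call lost without wild type array 1 or 2 or Sox4 array 1, with differences of -0.36 to -0.30. In K/L cells Manba gave -0.20 (adjusted p = 0.222), and -0.32 (adjusted p = 0.0239) without wild type array 3.

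**Figure D3:**
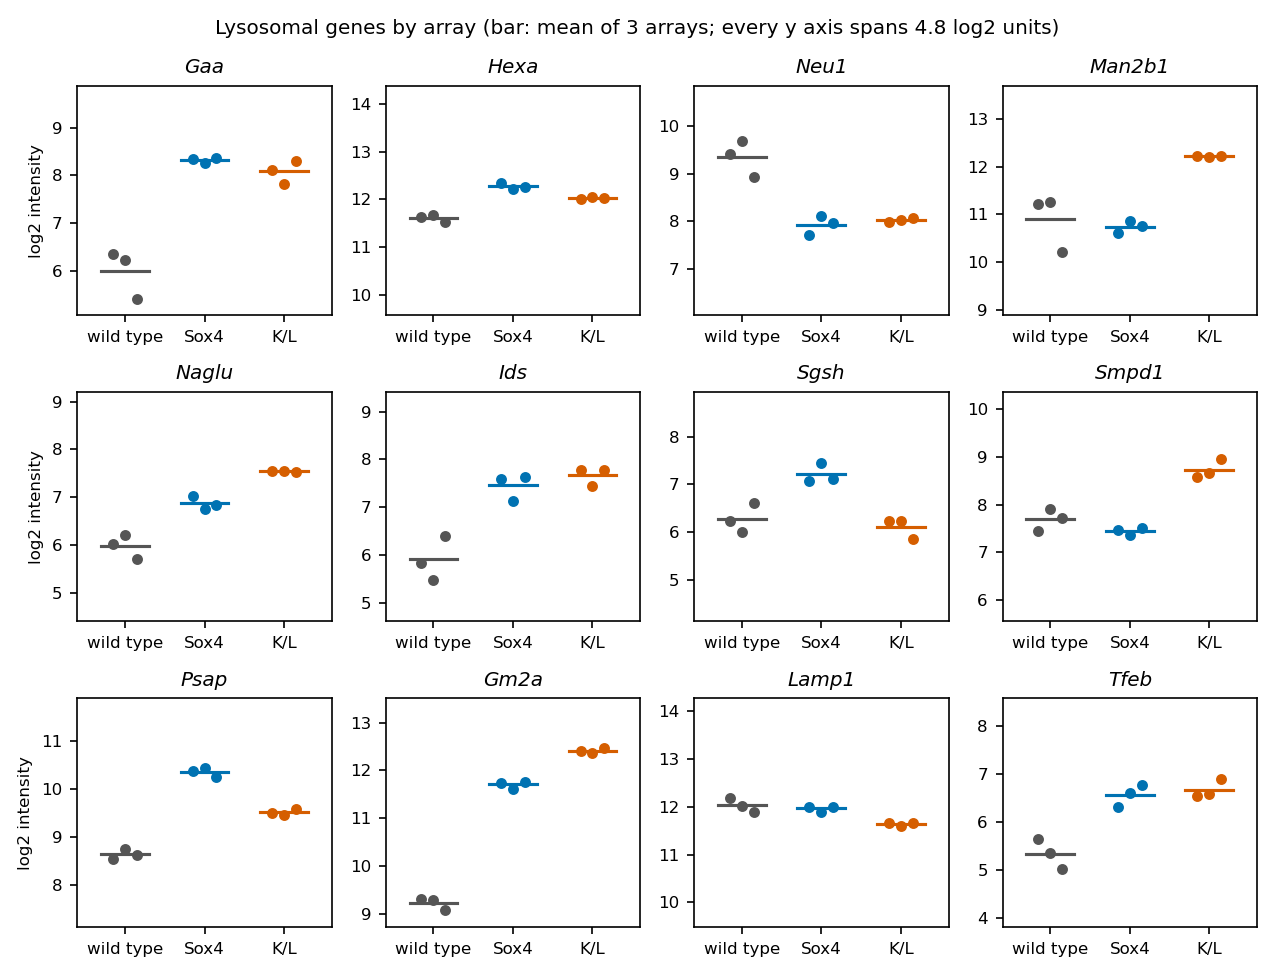
Log2 intensity (y axis, each spanning 4.8 units) of 12 lysosomal genes on each of the 9 arrays (points) by group, with bars at the mean of 3 arrays. Gaa, Ids, Gm2a and Tfeb lie higher and Neu1 lower in all 6 leukaemic arrays, Man2b1 and Smpd1 are high only in K/L and Sgsh only in Sox4 arrays, and Lamp1 reads 11.59 to 12.18 throughout.

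Glycosaminoglycan breakdown proceeds sulfate by sulfate and sugar by sugar, and the 7 genes for it did not move as a unit. In K/L cells 3 rose and 1 fell, and in Sox4 cells 4 rose and 1 fell. The shares called were 57.1 and 71.4 percent, against 50.6 and 47.8 percent of all genes, so the K/L share lies near that of all genes. Naglu, the N-acetylglucosaminidase of heparan sulfate, read 6.03, 6.22 and 5.71 in wild type, 7.03, 6.75 and 6.84 in Sox4, and 7.55, 7.55 and 7.54 in K/L arrays. The groups were fully separate, in the order wild type, Sox4, K/L. Naglu rose by 1.56 ± 0.13 in K/L cells (adjusted p = 1.02e-05) and by 0.89 ± 0.13 in Sox4 cells (adjusted p = 0.000421). Ids, the iduronate sulfatase that starts on heparan and dermatan sulfate, read 5.84, 5.48 and 6.41 in wild type, 7.59, 7.14 and 7.63 in Sox4, and 7.78, 7.44 and 7.78 in K/L arrays. Leukaemic arrays lay above wild type and overlapped each other. The rise was 1.76 ± 0.23 in K/L and 1.55 ± 0.23 in Sox4 cells (adjusted p = 0.000149 and 0.000355), and its 4 other probe sets above the filter were higher as well, by 0.95 to 2.07 in K/L and 0.51 to 1.81 in Sox4 cells, although no wild type array held 2 of these above its 40th percentile.

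Sgsh, the sulfamidase of heparan sulfate, was the gene that rose in Sox4 cells alone. It read 6.23, 6.0 and 6.61 in wild type, 7.07, 7.45 and 7.12 in Sox4, and 6.22, 6.23 and 5.85 in K/L arrays. Sox4 arrays lay above all others, while K/L and wild type overlapped. Sgsh rose by 0.93 ± 0.18 in Sox4 cells (adjusted p = 0.00181), and gave -0.18 ± 0.18 (adjusted p = 0.43) in K/L cells. Its other probe set gave -0.08 and -0.20 in these comparisons, neither past the threshold, so the pattern rests on 1 probe set. Gusb, the beta-glucuronidase, rose by 0.49 ± 0.10 in K/L cells (adjusted p = 0.00204) and by 0.30 ± 0.10 in Sox4 cells (adjusted p = 0.0284), the latter lost without wild type array 3 or Sox4 array 1 or 2, at 0.22 to 0.29. Idua, the iduronidase, fell in K/L cells by 0.35, a call lost without wild type array 1 or 2 or K/L array 1 or 2, with differences of -0.37 to -0.28, and after scaling to array medians or quantile normalization, at -0.26 and -0.29. In Sox4 cells Idua gave -0.29, and -0.40 past the threshold without wild type array 3. Galns fell in Sox4 cells by 0.43 (adjusted p = 0.0128), and without Sox4 array 1 it gave -0.36 (adjusted p = 0.0549). Galns in K/L cells and Arsb in Sox4 cells stayed near 0, at -0.04 and -0.01, signs that turn after scaling to array medians. Arsb in K/L cells gave -0.28, and -0.55 (adjusted p = 0.00484) without wild type array 3.

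Most genes of lipid breakdown rose. Of 6 genes, 5 rose and 1 fell in K/L cells, and 4 rose and 1 fell in Sox4 cells. That is 83.3 and 66.7 percent higher, against 29.0 and 26.7 percent of all genes. Gm2a encodes the activator that lifts GM2 ganglioside out of the membrane for hexosaminidase. It read 9.31, 9.28 and 9.09 in wild type, 11.74, 11.61 and 11.76 in Sox4, and 12.41, 12.36 and 12.46 in K/L arrays. The 3 groups were far apart and replicates close. That is 9.1-fold over wild type in K/L cells (3.19 ± 0.10, adjusted p = 8.28e-09) and 5.58-fold in Sox4 cells (2.48 ± 0.10, adjusted p = 6.32e-08). A dimmer probe set of Gm2a, which no wild type array held above its 40th percentile, was at least 30.1-fold higher in K/L and 11.6-fold higher in Sox4 cells, with wild type set to that percentile.

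Psap, the precursor of the saposins that activate sphingolipid hydrolases, rose most in Sox4 cells. It read 8.54, 8.75 and 8.61 in wild type, 10.38, 10.43 and 10.26 in Sox4, and 9.50, 9.46 and 9.59 in K/L arrays. No groups overlapped, and K/L lay between the others. Psap rose by 1.72 ± 0.10 in Sox4 (adjusted p = 6.74e-07) and by 0.88 ± 0.10 (adjusted p = 4.93e-05) for K/L, and on its other probe set by 1.34 and 0.77. Smpd1, the acid sphingomyelinase, read 7.45, 7.91 and 7.72 in wild type, 7.47, 7.37 and 7.51 in Sox4, and 8.57, 8.66 and 8.95 in K/L arrays. K/L arrays were high, and Sox4 overlapped wild type. Smpd1 rose in K/L cells by 1.03 ± 0.14 (adjusted p = 0.00021) and gave -0.24 ± 0.14 in Sox4 cells (adjusted p = 0.186).

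Arsa, the sulfatidase, rose by 0.78 ± 0.09 in K/L and 0.66 ± 0.09 in Sox4 cells. Asah1, the acid ceramidase, fell in both, with differences of -0.67 ± 0.10 and -0.50 ± 0.10. Lipa, the acid lipase of cholesteryl esters and triglycerides, rose by 0.82 ± 0.13 in Sox4 cells (adjusted p = 0.000545) and by 0.43 ± 0.13 in K/L cells (adjusted p = 0.0192). The K/L call of Lipa was lost without wild type array 1 or 2 or K/L array 1 or 3, at 0.34 to 0.40. A further probe set of Lipa gave 0.09 in K/L cells (adjusted p = 0.468 over all probe sets) and 0.39 in Sox4 cells. The remaining probe set gave 0.50 and 0.46, both past the threshold. K/L minus Sox4 was -0.30 on the former and 0.04 on the latter. Of the pair that passes cholesterol out of the lysosome, membrane-bound Npc1 rose in K/L cells by 0.33 ± 0.12 (adjusted p = 0.044). That call was lost without wild type array 2 or 3, Sox4 array 1 or 3 or any K/L array, at 0.26 to 0.37. In Sox4 cells Npc1 gave 0.31 (adjusted p = 0.0558), and 0.40 (adjusted p = 0.0272) without wild type array 1. The soluble carrier Npc2 fell in Sox4 cells, at -0.33 ± 0.08 (adjusted p = 0.00839), and gave -0.12 in K/L cells (adjusted p = 0.284). Its probe set of highest variance gave 0.0197 in Sox4 and -0.69 in K/L cells, the latter past the threshold (adjusted p = 0.0018), as was the mean of its probe sets in K/L cells, at -0.25 (adjusted p = 0.0387). Of the genes for protein breakdown and depalmitoylation, the peptidase Tpp1 rose by 0.66 ± 0.17 in K/L cells (adjusted p = 0.00853). In Sox4 cells Tpp1 rose by 0.50 ± 0.17 (adjusted p = 0.034), but gave 0.30 without wild type array 3, 0.42 without Sox4 array 2, 0.45 without Sox4 array 3 and 0.25 as the mean of its probe sets, none past the threshold. Ppt1, the thioesterase that removes palmitate, fell in both, at -0.49 ± 0.10 in K/L and -0.47 ± 0.10 in Sox4 cells, but its probe set of highest variance gave 0.10 and 0.55, neither past the threshold.

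Of the 5 membrane proteins tested in the list, 3 fell and 1 rose in K/L cells, where 21.6 percent of all genes fell and 29.0 percent rose. In Sox4 cells 1 fell and 1 rose, beside 21.1 and 26.7 percent of all genes. The 17 further membrane proteins described below did not share this direction in K/L cells, with 7 higher and 3 lower. Lamp1, an abundant glycoprotein that lines the lysosomal membrane, read 12.18, 12.01 and 11.90 in wild type, 12.00, 11.90 and 12.00 in Sox4, and 11.66, 11.59 and 11.66 in K/L arrays. K/L arrays lay below all others, and Sox4 overlapped wild type. Lamp1 fell in K/L cells, at -0.40 ± 0.10 (adjusted p = 0.00718), and gave -0.06 ± 0.10 in Sox4 cells (adjusted p = 0.623). Lamp2, its relative needed for autophagy, gave -0.21 in K/L cells (adjusted p = 0.0696), and -0.26 (adjusted p = 0.0296) without wild type array 3. Scarb2, the receptor that carries glucocerebrosidase to the lysosome, fell in both, at -0.81 ± 0.09 in K/L (adjusted p = 6.12e-05) and -0.51 ± 0.09 in Sox4 cells (adjusted p = 0.00124).

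Mcoln1, a calcium channel of the lysosome, fell in K/L cells, at -0.37 ± 0.11 (adjusted p = 0.0222). That call was lost without wild type array 2 or K/L array 1 or 3, at -0.37 to -0.28, and after scaling to array medians or quantile normalization, at -0.27 each. Its next brightest probe set gave -0.06 in K/L cells (adjusted p = 0.77 over all probe sets), and its dimmest -0.52 (adjusted p = 0.00739). In Sox4 cells Mcoln1 gave -0.29 (adjusted p = 0.0634), and -0.37 (adjusted p = 0.0171) without wild type array 3. The call was also gained with the mean of its probe sets, at -0.38, and with the dim one of highest variance, at -0.75 (adjusted p = 0.000932), which no Sox4 array held above its 40th percentile. Cln3, a multispan membrane protein, rose by 0.53 ± 0.13 in K/L and 0.72 ± 0.13 in Sox4 cells. The other probe set moved against it in K/L cells, at -0.46 with an adjusted p of 0.0276 over all probe sets, and the mean of both gave 0.03 (adjusted p = 0.784). For the called genes with further probe sets above the filter, 22 of 24 of these had the same sign in K/L versus wild type, 17 of 23 in Sox4 versus wild type and 6 of 7 in K/L versus Sox4. Only that probe set of Cln3 was called in the opposite direction. Averaging a gene's probe sets also ended the calls of Idua in K/L cells (-0.29) and of Galns (-0.21) and Ppt1 (-0.13) in Sox4 cells. It brought Man2b1 (-0.62), Arsb (-0.50) and Npc1 (0.31) in Sox4 cells and Lamp2 (-0.39) in K/L cells past the threshold, and lowered Man2b1 to 0.74, Smpd1 to 0.68 and Neu1 to -0.86 in K/L cells. In Sox4 cells Neu1 then gave -0.88, Sgsh 0.43 and Cln3 0.26, each still past the threshold. These means also take in probe sets under the filter. The only other probe set of Galns averaged 3 in every group, and that of Smpd1 3.01 to 3.34, both under the filter. A smaller mean difference for these genes thus does not show that their probe sets disagree.

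The leukaemias were then compared with each other, which is also the test of whether their differences from wild type differ. Of 30 lysosomal genes 11 passed (36.7 percent), against 28.9 percent of all genes: 6 were higher in K/L cells, where 14.9 percent of all genes were, and 5 lower, against 14.0 percent. At least 2-fold were 3, against 9.08 percent of all genes, and groups did not overlap in 19, against 51.1 percent. These shares lie near those of all genes. The count fell to 7 without Sox4 array 1 or 2 or any K/L array, and scaling to array medians gave 8 higher and 2 lower.

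Higher in K/L cells were Man2b1 (1.48 ± 0.24, adjusted p = 0.00121), Smpd1 (1.28 ± 0.14, adjusted p = 9.97e-05), Gm2a (0.71 ± 0.10), Naglu (0.67 ± 0.13) and Glb1 (0.64 ± 0.11). Higher in Sox4 cells were Sgsh, with a K/L minus Sox4 difference of -1.11 ± 0.18 (adjusted p = 0.00115), and Psap, with -0.84 ± 0.10 (adjusted p = 0.000131). These 7 calls also held with each array left out in turn. Galns was higher in K/L cells by 0.39 ± 0.12 (adjusted p = 0.0335), and Lipa (-0.39 ± 0.13), Lamp1 (-0.33 ± 0.10) and Scarb2 (-0.30 ± 0.09) were lower, with adjusted p of 0.046, 0.029 and 0.0338. These 4 calls were lost when single Sox4 or K/L arrays were left out, and those of Lipa, Lamp1 and Scarb2 also after scaling to array medians. Without Sox4 array 1 the adjusted p was 0.123 for Galns, 0.0756 for Lipa, 0.0892 for Lamp1 and 0.0832 for Scarb2, and it was 0.0506 to 0.146 over the other left-out arrays that ended a call, at differences of 0.34 to 0.43 for Galns, -0.42 to -0.33 for Lipa, -0.36 to -0.31 for Lamp1 and -0.32 to -0.29 for Scarb2. Those arrays were Sox4 array 2 and every K/L array for all 4, Sox4 array 3 for all but Galns, and wild type array 1 for Lipa. Gla (0.31), Hexa (-0.25) and Npc2 (0.22) did not pass, but did without wild type array 3, with adjusted p of 0.0385, 0.0273 and 0.0467.

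For genes that moved alike in both leukaemias, the interval bounds what difference between them may remain on the brightest probe set alone. Gaa differed by -0.24 (95% interval -0.75 to 0.26), Ids by 0.21 (-0.29 to 0.72) and Neu1 by 0.10 (-0.31 to 0.50). Intervals for Arsa (0.12, from -0.08 to 0.32) and Ppt1 (-0.02, from -0.25 to 0.22) were narrower. A missed threshold does not show that these genes were alike. Dimmer probe sets did pass, with adjusted p over all probe sets. They gave -0.40 for Gaa (adjusted p = 0.0484), 0.57 for Ids (adjusted p = 0.00901) and -0.47 for Ppt1 (adjusted p = 0.0327). The remaining probe sets of these genes above the filter did not pass.

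**Figure D4:**
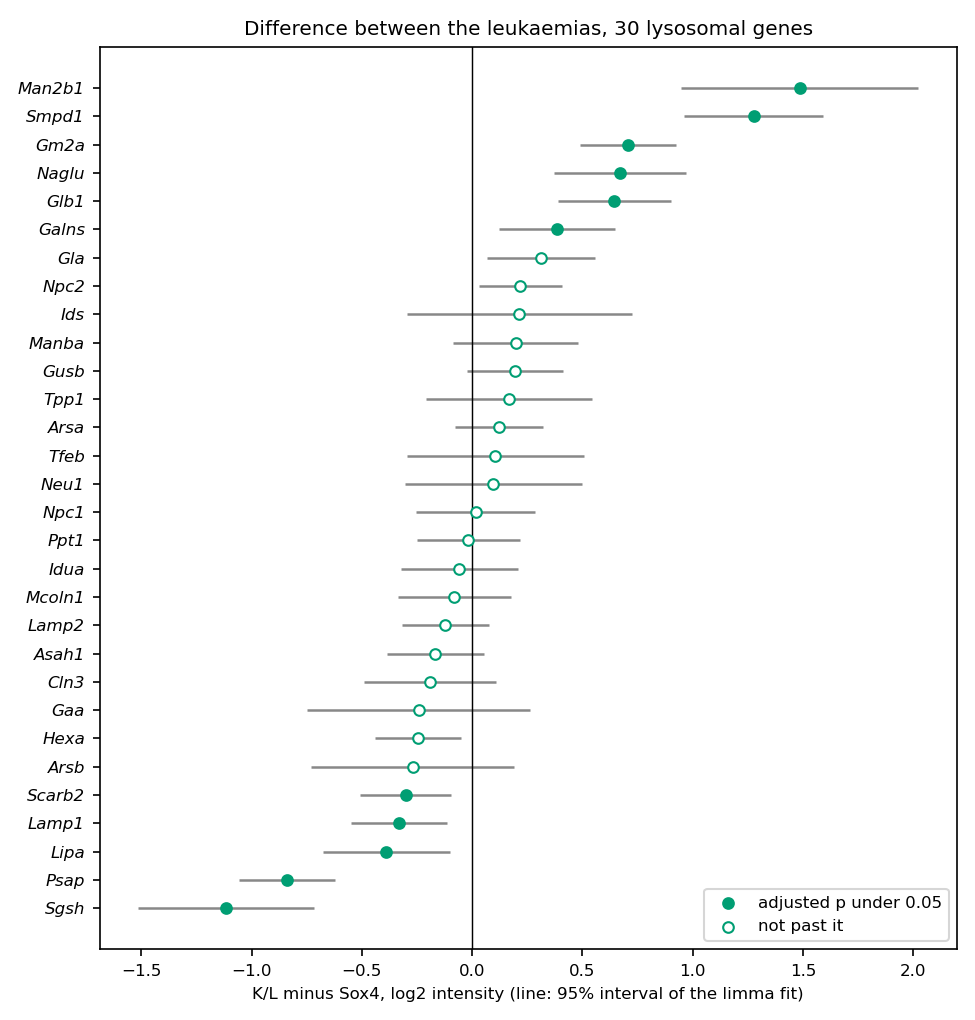
Difference between K/L and Sox4 cells in log2 intensity (x axis, K/L minus Sox4, 3 against 3 arrays) for the 30 lysosomal genes (y axis), with lines for the 95% interval of the fit and filled points where the adjusted p lies under 0.05. Man2b1 (1.48) and Smpd1 (1.28) lie farthest towards K/L, and Sgsh (-1.11) and Psap (-0.84) farthest towards Sox4.

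Around these genes, 94 others of the lysosome were followed in 5 lists, of which 85 were on the arrays and 84 tested. In K/L cells 32 rose and 18 fell (59.5 percent, against 50.6 percent of all genes), in Sox4 cells 29 rose and 22 fell (60.7 percent, against 47.8), and between the leukaemias K/L cells were higher in 14 and lower in 14 (33.3 percent, near the 28.9 percent of all genes). Scaling to array medians turned that last split to 20 and 12, and its count of 28 became 18 without Sox4 array 3 or K/L array 1. The core CACGTG lay in the window of 21 of the 72 of these genes that had one, or 29.2 percent.

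Genes that deliver hydrolases leaned upwards, with 9 of 14 higher and 2 lower in each leukaemia. That is 64.3 percent higher, against 29.0 percent of all genes in K/L and 26.7 percent in Sox4 cells. Gnptab, a subunit of the transferase that makes the mannose 6-phosphate tag, rose by 1.46 ± 0.20 in Sox4 and 0.97 ± 0.20 in K/L cells, and the adaptor Gga1 by 1.31 ± 0.09 and 1.28 ± 0.09. The adaptor Gga2 fell in both, at -0.43 ± 0.10 in Sox4 and -0.77 ± 0.10 in K/L cells. Igf2r, the large mannose 6-phosphate receptor, read 7.11, 7.17 and 7.30 in wild type, 4.94, 5.25 and 4.90 in Sox4, and 4.47, 4.54 and 4.32 in K/L arrays. Wild type arrays lay far above both leukaemias, and in K/L cells none of 3 arrays exceeded its 40th percentile. With these set to that percentile Igf2r was at least 5.06-fold lower in K/L cells (adjusted p of the fit 1.01e-07), and it differed by -2.16 ± 0.12 in Sox4 cells (adjusted p = 6.02e-07). The small receptor, M6pr, rose by 0.32 ± 0.08 and 0.33 ± 0.08.

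Relatives of Tfeb and genes of nutrient sensing at the lysosome gave 6 higher and 3 lower of 18 in K/L cells, and 6 higher and 2 lower in Sox4 cells. The shares called, 50 and 44.4 percent, lay near the 50.6 and 47.8 percent of all genes. Tfe3 read 6.04, 6.40 and 5.73 in wild type, 7.98, 7.68 and 7.85 in Sox4, and 7.63, 7.67 and 7.81 in K/L arrays. Both leukaemias lay above wild type, by 1.78 ± 0.16 in Sox4 and 1.64 ± 0.16 in K/L cells. Mitf rose by 1.98 ± 0.17 in Sox4 and 0.95 ± 0.17 in K/L cells, and was lower in K/L than in Sox4 cells, at -1.03 ± 0.17 (adjusted p = 0.00155). Tfec, another relative, fell by 0.40 in K/L and 0.39 in Sox4 cells. Mtor, the kinase that holds Tfeb in the cytoplasm, rose by 1.03 ± 0.17 and 1.04 ± 0.17 in K/L and Sox4 cells. Dimmer probe sets of Mtor gave less, at 0.55 and 0.50 on 1 and -0.10 and 0.28 on another. Fnip1, a partner of folliculin, fell in both, at -1.02 ± 0.10 and -1.14 ± 0.10.

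Among 19 further hydrolases and their helpers, 7 rose and 6 fell in K/L cells, and 4 rose and 7 fell in Sox4 cells. The shares called were 68.4 and 57.9 percent, against 50.6 and 47.8 percent of all genes. Galc, the galactosylceramidase, read 8.58, 8.46 and 8.43 in wild type, 7.65, 7.58 and 7.80 in Sox4, and 4.09, 4.49 and 4.43 in K/L arrays. K/L arrays were lowest, all at or under their 40th percentile, and the 3 groups did not overlap. With K/L arrays set to that percentile Galc was at least 12.4-fold lower than in wild type, and in Sox4 cells it differed by -0.81 ± 0.12. The sulfatase Arsg had the larger fall in Sox4 cells, with -4.02 ± 0.27 there and -1.68 ± 0.27 in K/L cells. Scpep1, a serine carboxypeptidase, rose by 3.00 ± 0.33 in Sox4 and 2.55 ± 0.33 in K/L cells. It was dim in wild type, at 5.22, 5.55 and 3.97, and array 3 lay under its 40th percentile, which widens these differences. The 16 proton pump subunits were split: 3 rose and 4 fell in K/L cells, and 4 went each way in Sox4 cells. Their shares called, 43.8 and 50 percent, lay near those of all genes. Atp6v1f rose in K/L cells by 0.45 ± 0.09 and fell in Sox4 cells, at -0.58 ± 0.09. Of 17 further membrane proteins, 7 rose and 3 fell in K/L cells (58.8 percent called), and 6 rose and 7 fell in Sox4 cells (76.5 percent). Laptm5, which sorts receptors to the lysosome in blood cells, rose by 2.14 ± 0.13 and 1.82 ± 0.13 in K/L and Sox4 cells. A much brighter _x_at probe set of Laptm5, not used by the rule, gave only 0.55 and 0.57. The calcium-permeable channel Tpcn1 rose by 2.12 ± 0.16 and 1.60 ± 0.16. The amino acid sensor Slc38a9 fell, at -1.93 ± 0.14 in K/L and -0.46 ± 0.14 in Sox4 cells.

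**Figure D5:**
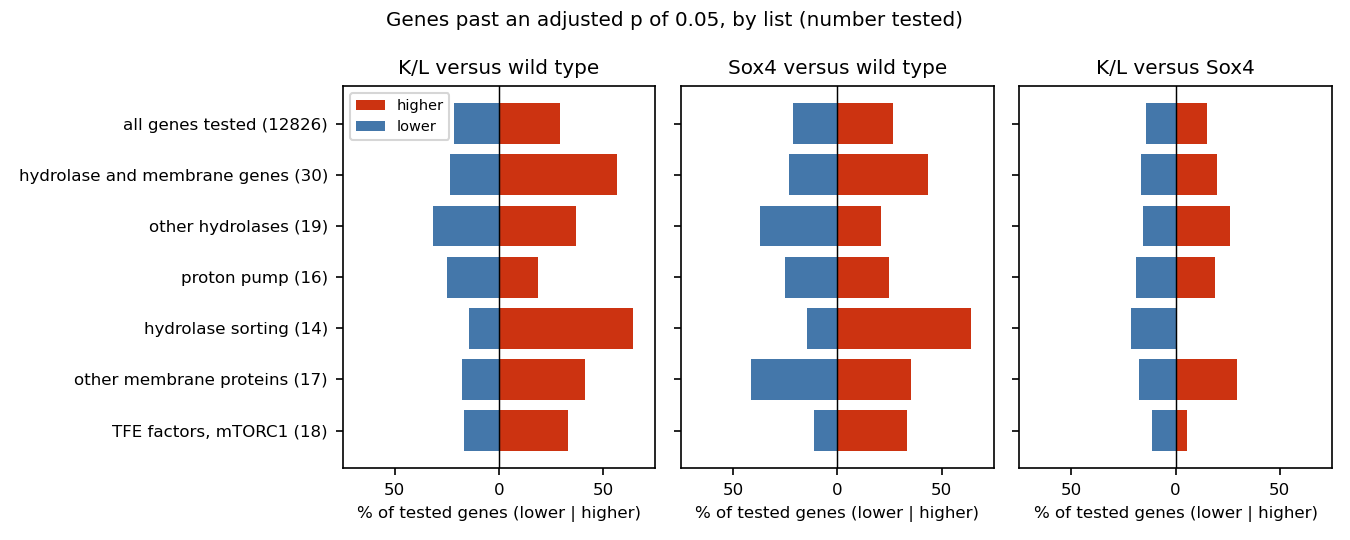
Share of tested genes past an adjusted p of 0.05 (x axis, percent; bars to the right of 0 for higher, to the left for lower) for all genes tested, the 30 lysosomal genes and the 5 further lists (y axis, number tested in brackets) in the 3 comparisons. In K/L versus wild type the 30 genes reach 56.7 percent higher, against 29.0 percent of all genes, and in K/L versus Sox4 20.0 percent, against 14.9 percent.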

How the data were processed

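RNA of 9 samples was measured, 3 in each of 3 groups taken from the sample titles. The authors deposited 1 table of intensity values on a linear scale for 45101 probe sets, with a lowest value of 8. Per the submitters' processing notes RMA was used, without a version, and further steps are not stated there. No scan dates were used.

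The deposited intensity was transformed to log2 and kept at its scaling. Probe sets were named from platform annotation: 34958 had 1 symbol, and 932 with several and 9211 with none were left out. A gene took its probe set of highest mean, with _x_at probe sets used only where there was no other, and was tested if at least 3 arrays exceeded their 40th percentile. Differences were tested with limma 3.58.1 (R 4.3.3; lmFit, eBayes) in 1 fit of 3 groups, with 6 residual and 3.71 prior degrees of freedom, adjusted by Benjamini-Hochberg over 12826 genes per comparison, and the procedure was tested on simulated data. No permutation p is given, since 3 against 3 arrays cannot go below 0.1. Same-numbered arrays of different groups did not deviate together (correlations of -0.024 to 0.082, 0 of 9 over 0.1), so numbers were not used as pairs. Named with all arrays were listed genes past the threshold at 2-fold or more in any comparison, with Tfeb, Lamp1, Gaa and Hexa always, and per further list genes among the 4 of smallest p in a comparison; M6pr and Tfec were added after their values were seen. The 31 genes and all lists were chosen with earlier results of these data known. Alternatives were other filters, probe-set rules, scalings, eBayes settings, a replicate block, 2-group fits and each array left out; testing each probe set on its own was chosen after seeing the data. Promoter windows came from RefSeq.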

Additional observations from a re-analysis of the deposited data

Results flagged for a closer look

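In 11 of the 30 lysosomal genes the difference from wild type was not the same in the leukaemias, by the test of K/L against Sox4 cells (limma, adjusted p under 0.05). Values are K/L minus Sox4 in log2 units, over 3 against 3 arrays. All 11 had groups that did not overlap, but they were picked by this test, so that adds no support. Of all 30 genes, 19 had groups that did not overlap. Over all genes 28.9 percent passed and 51.1 percent did not overlap, so the share that passed, 36.7 percent, lies near that of all genes. Among sugar-removing enzymes Man2b1 (1.48) and Glb1 (0.64) were higher in K/L cells, as were Naglu (0.67) and Galns (0.39) of glycosaminoglycan breakdown, and Sgsh (-1.11) was lower. Among lipid genes Smpd1 (1.28) and Gm2a (0.71) were higher and Psap (-0.84) and Lipa (-0.39) lower. The membrane proteins Lamp1 (-0.33) and Scarb2 (-0.30) were lower. Gm2a, Naglu, Psap and Lipa rose in both leukaemias and differ in size, and Scarb2 fell in both. Sgsh rests on 1 of its 2 probe sets.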

How the results depend on the processing

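Over 20 alternatives, 17 of 24 calls in K/L versus wild type, 14 of 20 in Sox4 versus wild type and 7 of 11 in K/L versus Sox4 held throughout. With 1 array left out, called lysosomal genes numbered 19 to 25, 17 to 21 and 7 to 14 in these comparisons, further lysosomal genes 45 to 51, 43 to 51 and 18 to 38, and median lysosomal differences were 0.32 to 0.40, -0.0419 to 0.150 and -0.01 to 0.09. Taking the probe set of highest variance moved the Sox4 median from 0.04 to 0.29, and turned Ppt1 to 0.10 in K/L and 0.55 in Sox4 versus wild type, Npc2 to 0.0197 in Sox4 versus wild type and -0.71 in K/L versus Sox4, and Arsb to 1.16 in K/L versus Sox4, since it reads another probe set. With a replicate block, which the numbers do not warrant, 22, 20 and 9 lysosomal and 50, 48 and 26 further genes were called; Idua and Npc1 in K/L versus wild type and Galns and Scarb2 in K/L versus Sox4 were the calls lost. The number of arrays limits precision.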

Other observations

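Probe sets of a gene did not always move together. A dimmer probe set of Arsb was at least 2.9-fold lower in Sox4 cells, none of whose arrays exceeded its 40th percentile, and fell in K/L cells, at -0.64, while the brightest gave -0.01 and -0.28. Of 4 Lamp2 probe sets, 1 fell in both leukaemias, at -0.93 in K/L and -0.65 in Sox4 cells, and the other 3 lay between -0.25 and 0.07, none past the threshold. Of 5 Ppt1 probe sets, the brightest and next brightest fell in both leukaemias, and the others gave -0.76 to 0.10 in K/L and -0.29 to 0.55 in Sox4 cells. These probe sets were chosen after their values were seen.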
